A study of Penicillium oxalicum with 12 samples.

Results

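*xyn10A* (PDE_08094) is the gene of the secreted xylanase Xyn10A of the filamentous fungus *Penicillium oxalicum*. It was chosen by its locus tag, as 1 of the 9909 genes listed in at least 1 of the 12 libraries, and is described across all of them. The libraries were made from WT strain 114-2 and from Δ*Podot1*, a deletion strain of the same background in which the coding region of *Podot1*, the gene of the histone H3 lysine 79 methyltransferase, is replaced by a hygromycin resistance marker. The 4 groups were Δ*Podot1* in cellulose medium, Δ*Podot1* in glucose medium, WT in cellulose medium and WT in glucose medium, with 3 biological replicates each. Cellulose medium held 1% microcrystalline cellulose and 1% wheat bran, and glucose medium held 2% glucose. All mycelia were first grown on glucose, then washed and moved to the new medium, and RNA was taken 24 h after the transfer. All 4 groups thus share the preculture on glucose, and since cellulose was given together with wheat bran, the effects of cellulose and of bran cannot be told apart. No glucose is listed for cellulose medium, so the effects of this material and of missing glucose cannot be told apart either. A complemented strain was not among these libraries, so that the deletion and any other change in the 1 mutant strain cannot be told apart.

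Xylan is the main hemicellulose of grass cell walls, a chain of xylose units linked β-1,4 that carries arabinose and acetyl side groups. Xylanases of glycoside hydrolase family 10 cut this chain inside, while arabinofuranosidases and acetylxylan esterases remove the side groups and β-xylosidases release single xylose units. Wheat bran is rich in arabinoxylan. In filamentous fungi such as *Penicillium* and *Aspergillus*, genes of secreted xylanases and cellulases are commonly low while glucose is present and high on plant cell wall material.

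The total of the estimated counts was between 4607764 and 7081689 per library. The deposited FPKM value (fragments scaled to gene length and to the number of mapped fragments) is a level corrected for gene length, and the files give *xyn10A* a length of 1492 bases. The transcript of *Podot1* (PDE_07484), which checks the strain labels, had 0, 1 and 2 counts in replicates 1, 2 and 3 of Δ*Podot1* in glucose, against 241, 279 and 323 counts in WT in glucose. In cellulose it had 341, 613 and 0 counts in replicates 1, 2 and 3 labelled Δ*Podot1*, against 264, 244 and 230 counts in WT. Replicates 1 and 2 therefore go against their label, and these 3 libraries are called the libraries labelled Δ*Podot1*. The groups compared below are those of the labels, so that Δ*Podot1* in cellulose stands for these 3 libraries in every comparison between strains or media. Replicate 2 of them also stood apart over 9274 genes: the Pearson correlation of its log2(FPKM + 1) values averaged 0.904 with the Δ*Podot1* glucose libraries and 0.651 with replicates 1 and 3 of its own group, which had an r of 0.899 with each other (across genes, which are not independent replicates). Fits that rest on these libraries are also given without replicate 2 and without replicates 1 and 2 together, where replicate 3, with no *Podot1* count, is the only mutant cellulose library and is assumed to vary like the other groups. Levels, ranks and shares are given for each library.

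*xyn10A* was close to silent in glucose medium in both strains and high in cellulose medium, except in 1 library labelled Δ*Podot1*. In the cellulose libraries labelled Δ*Podot1*, *xyn10A* was at 145, 4.11 and 218 FPKM in replicates 1, 2 and 3, from 1412, 41 and 2107 counts. Replicates 1 and 3 were high, and replicate 2 lay 35.4-fold below replicate 1 and 53.0-fold below replicate 3. In Δ*Podot1* in glucose, the level was 2.34, 1.32 and 1.30 FPKM, from 23, 13 and 13 counts. WT in cellulose had 97.3, 70.6 and 285 FPKM, from 671, 568 and 2215 counts. Its replicate 3 was 3.40-fold above the mean of the other two. WT in glucose had 0.83, 0.19 and 1.42 FPKM, from 6, 2 and 15 counts. At these counts a single glucose library is poorly measured, as the 2 counts of WT replicate 2 have a 95% exact Poisson interval of 0.0230 to 0.686 FPKM. Counting intervals here and below cover counting error only.

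**Figure D1:**
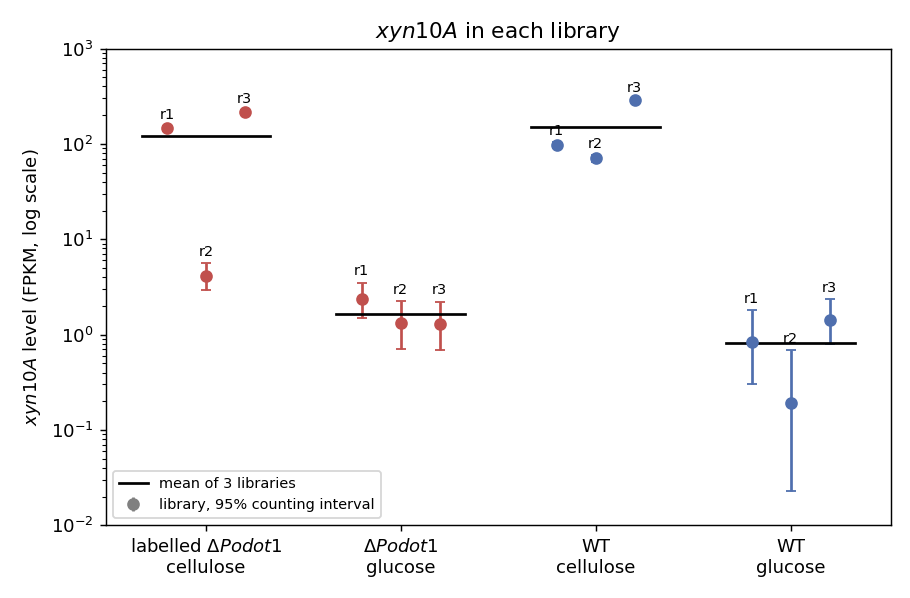
*xyn10A* level in FPKM on a log scale for each of the 12 libraries, with replicates as points (r1 to r3), bars for the 95% exact Poisson interval of the count, and a black line for the mean of each group. Replicate 2 labelled Δ*Podot1* in cellulose, at 4.11 FPKM, lies near the glucose libraries (0.19 to 2.34 FPKM), and the other 5 cellulose libraries lie between 70.6 and 285 FPKM.

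The group means were 122 ± 109 FPKM in the cellulose libraries labelled Δ*Podot1*, 1.65 ± 0.59 FPKM in Δ*Podot1* in glucose, 151 ± 117 FPKM in WT in cellulose and 0.81 ± 0.62 FPKM in WT in glucose (SD, n = 3 each). By mean, WT in cellulose was highest, followed by the cellulose libraries labelled Δ*Podot1*, Δ*Podot1* in glucose and WT in glucose. The groups of the same medium are neighbours in this order and overlapped, and the cellulose libraries of each label did not overlap with its glucose libraries. The spread between replicates in cellulose was wide for this gene, and among the libraries labelled Δ*Podot1* not for it alone. Replicate 2 labelled Δ*Podot1* also lay below replicates 1 and 3 for 9 of the 9 other secreted glycoside hydrolase genes named below. The high value of WT replicate 3 was mostly not shared. That library was the highest in WT in cellulose for 1 of these 9, *chi18A*, at 3.34-fold the mean of replicates 1 and 2. For these orders the share over all genes is not given here. On the log2(FPKM + 1) scale the SD was 2.98 among the cellulose libraries labelled Δ*Podot1*, larger than that of 98.3% of the 7564 genes with a group mean of at least 10 FPKM, whose median SD was 0.57. Among the WT libraries in cellulose it was 1.05, larger than that of 96.5% of 7047 such genes, whose median SD was 0.31.

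Relative to other genes, *xyn10A* moved between the lowest and the highest parts of the transcriptome. In the cellulose libraries labelled Δ*Podot1*, 91.0%, 14.1% and 94.3% of the genes listed in replicates 1, 2 and 3 had a lower FPKM. In Δ*Podot1* in glucose the share was 12.6%, 9.07% and 10.9%. In WT in cellulose 84.7%, 78.7% and 96.1% of the listed genes were lower, and in WT in glucose 6.51%, 1.96% and 11.4%. The median of the listed genes was 20.6 to 27.1 FPKM in all 12 libraries, so *xyn10A* was below the median in the 6 glucose libraries and in replicate 2 labelled Δ*Podot1* in cellulose, and above it in the other 5.

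The medium comparison asks how far the gene differs between cellulose medium and glucose medium. A response to plant cell wall material and one to the absence of glucose cannot be told apart in it. In the libraries labelled Δ*Podot1* *xyn10A* was higher in cellulose than in glucose by 6.09 on the log2 scale (standard error 1.21, 95% interval 3.44 to 8.74, adjusted p = 0.00609, quasi-likelihood test of edgeR, Benjamini-Hochberg adjustment). By increase the gene ranked 102 of the 9088 genes tested, of which 13.4% were called higher. Its rank was again 102 (of 9136) without replicate 2 in cellulose and 67 (of 9216) without replicates 1 and 2. A gene was called at an adjusted p under 0.05 with at least a 2-fold change. The summed counts were 3560 in cellulose and 49 in glucose, which at equal depth is a ratio of 73.4 (exact 95% interval from counting 55.4 to 99.3). In mycelium taken as a whole, more cells with the transcript and more transcript per cell cannot be told apart. All 3 cellulose libraries lay above all 3 glucose libraries, as for 21.2% of the genes listed in these groups (p = 0.1, two-sided exact permutation test of FPKM, and no smaller p is possible with 3 against 3). A fit on these 6 libraries alone gave a log2 fold change of 6.11 that missed the threshold (adjusted p = 0.0644, edgeR).

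In WT the log2 fold change of *xyn10A* in cellulose over glucose was 7.33 (standard error 1.31, 95% interval 4.48 to 10.18, adjusted p = 0.00180, edgeR). By increase the gene ranked 76 of 9088, of which 19.2% were called higher. The summed counts were 3454 in cellulose and 23 in glucose, at equal depth a ratio of 186 (counting interval 124 to 294). The 3 WT cellulose libraries lay above the 3 WT glucose libraries, as for 31.8% of the genes listed (p = 0.1 in the same exact test). The call held under all 25 tested alternatives, and the lowest log2 fold change was 3.66, in limma on log2(FPKM + 10). The standard error of 1.31 rests on a spread shared over all 12 libraries. It was 0.79 in a fit on the WT libraries alone (log2 fold change 7.27). Without replicate 2 labelled Δ*Podot1* in cellulose it was 0.70 (7.32).

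With 1 library left out, the standard error of the medium response by the Δ*Podot1* label fell most without replicate 2 in cellulose. The 41 counts of that replicate were 2.49-fold the Δ*Podot1* glucose level at equal depth (exact 95% interval from counting 1.60 to 3.84) and 1.76-fold the highest glucose library in FPKM. Without it, the log2 fold change of cellulose over glucose in Δ*Podot1* reached 6.66 (standard error 0.67, adjusted p = 1.07e-05, edgeR). The estimate moved more without replicate 3 labelled Δ*Podot1* in cellulose, to 5.33 (standard error 1.18, adjusted p = 0.0106, edgeR). Without both libraries that go against their label, 1 cellulose library remained, that of replicate 3 with no *Podot1* count, and the change was 6.94 on the log2 scale (standard error 0.72, adjusted p = 3.25e-05, edgeR).

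The other genes of the 10 most secreted glycoside hydrolases that the study names responded in the same direction. They are the cellobiohydrolase genes *cel7A* and *cel6A*, the endoglucanase genes *cel7B* and *cel5B*, the β-glucosidase gene *cel3A*, the lytic polysaccharide monooxygenase gene *cel61A*, the glucoamylase gene *amy15A*, the α-amylase gene *amy13A* and the chitinase gene *chi18A*. All 9 passed the test as higher in cellulose, by a log2 fold change of 2.83 to 7.23 in Δ*Podot1* (median 6.04, against 0.07 over all genes tested) and of 6.79 to 8.88 in WT (median 7.77, against 0.05 over all genes). The change of *xyn10A* lay inside both ranges. All 9 were also called higher in Δ*Podot1* without replicate 2 in cellulose (3.34 to 7.81, median 6.61), where 1869 of the 9136 genes tested were. Without replicates 1 and 2 their log2 fold changes were 3.69 to 7.43 (median 6.14). In the fit on the 6 Δ*Podot1* libraries alone 0 of the 9 were called, where 124 of the 8808 genes tested were called higher. Limma on log2(FPKM + 10) called 5 of the 9, where 455 of the 9274 genes tested were called higher. The 10 genes share the libraries, so these are not independent results.

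**Figure D2:**
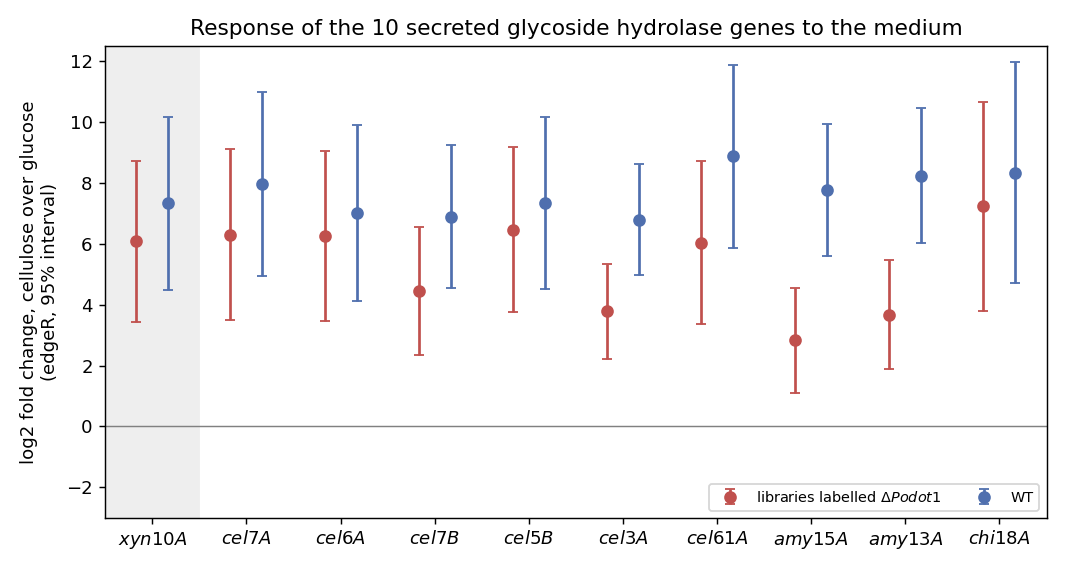
Log2 fold change of cellulose over glucose for *xyn10A* (shaded) and the other 9 secreted glycoside hydrolase genes, in the libraries labelled Δ*Podot1* (red) and in WT (blue), with 95% intervals from edgeR. *xyn10A* lies at 6.09 in Δ*Podot1* and 7.33 in WT with overlapping intervals, whereas *amy15A* lies at 2.83 in Δ*Podot1* and 7.77 in WT.

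Although its increase in cellulose was of the same order, the level of *xyn10A* was low within this group. By FPKM it ranked 8th, 9th and 7th of the 10 genes in replicates 1, 2 and 3 labelled Δ*Podot1* in cellulose, and 10th, 10th and 9th in WT in cellulose. In glucose it ranked 9th, 10th and 10th in Δ*Podot1* and 10th in each WT library. Its share of the summed FPKM of the 10 genes was 1.09%, 1.88% and 1.35% in the cellulose libraries labelled Δ*Podot1*, against 0.268%, 0.207% and 0.702% in WT in cellulose. By label these shares did not overlap, and replicate 3, the library with no *Podot1* count, was at 1.35%. The largest term of the sum in WT was *amy15A*, at 334 ± 268 FPKM in the cellulose libraries labelled Δ*Podot1*, against 13880 ± 793 FPKM for WT in cellulose (SD, n = 3 each).

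The strain comparison sets the libraries against each other by label, first in cellulose, where the gene is high. Replicates 1 and 2 labelled Δ*Podot1* held *Podot1* counts, and *Podot1* itself had a log2 fold change of -0.15 there (adjusted p = 0.927, edgeR). The comparison in cellulose therefore does not measure the loss of *Podot1*. The mean *xyn10A* level of the libraries labelled Δ*Podot1* was 81.0% of the WT mean, and edgeR gave a log2 fold change of -0.32 (standard error 0.95, 95% interval -2.39 to 1.74, adjusted p = 0.820). A difference was not detected, and since the interval runs from a lower to a higher level the test does not show that the levels were equal. For comparison, 10.8% of the 9088 genes tested were called lower and 14.3% called higher in the libraries labelled Δ*Podot1*. The libraries overlapped (two-sided exact permutation test on FPKM, p = 0.8). The levels of 145 and 218 FPKM in replicates 1 and 3 labelled Δ*Podot1* both fell inside the WT range of 70.6 to 285 FPKM, and replicate 2, at 4.11 FPKM, fell below it.

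The sign of this difference rested on single libraries. Without replicate 2 labelled Δ*Podot1*, the mean of the other two was 182 FPKM, which is 120% of the WT mean, and the log2 fold change turned to 0.25 (standard error 0.55, adjusted p = 0.761, edgeR). Without WT replicate 3 it turned to 0.48 (standard error 1.05, adjusted p = 0.773, edgeR), and the mean of WT replicates 1 and 2 was 83.9 FPKM. With replicate 3 as the only library labelled Δ*Podot1* it was 0.53 (standard error 0.67, adjusted p = 0.585, edgeR). None of the 25 tested alternatives called the gene in this comparison, with adjusted p between 0.439 and 0.857. The value was lowest, at -1.29, in limma on log2(FPKM + 0.1), where each library counts equally on the log scale.

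**Figure D3:**
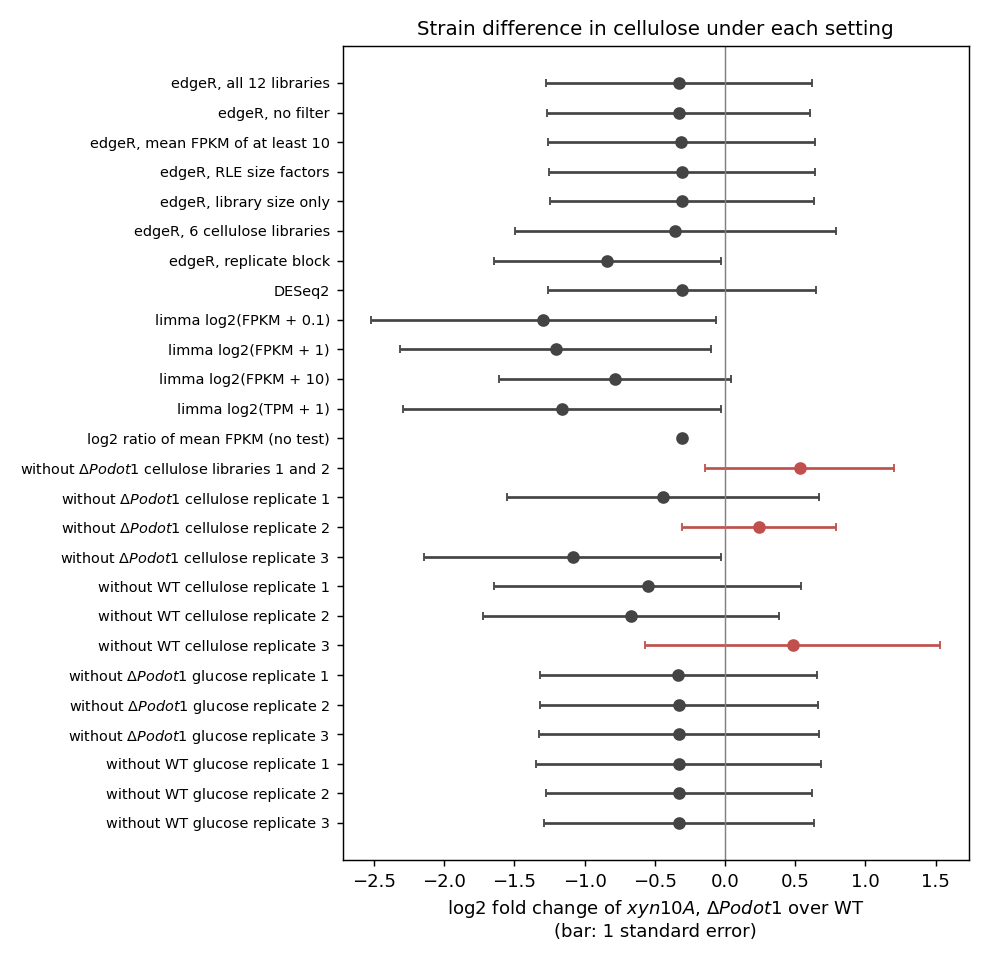
Log2 fold change of *xyn10A* in the libraries labelled Δ*Podot1* over WT in cellulose, with 1 standard error, in the edgeR fit (top) and under each alternative below it. Values above 0 (red, 0.25 to 0.53) appear without replicate 2 labelled Δ*Podot1*, without its replicates 1 and 2 together, and without WT replicate 3, and the other values lie between -1.29 and -0.30.

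Other secreted glycoside hydrolase genes were further below WT in the same libraries. Of the 9, *amy15A* (log2 fold change -5.42), *amy13A* (-4.22) and *cel61A* (-3.13) were called downregulated, 0 were called upregulated and 6 were not called, with a median of -1.89 against 0.14 over all genes tested. The call of *cel61A* was lost in 12 of 24 alternative fits, among them those without any one WT library, without any one Δ*Podot1* glucose library and with the replicate block, and those of *amy15A* and *amy13A* in 1 each. Without replicate 2 labelled Δ*Podot1*, 5 of the 9 were called lower, where 1104 of the 9136 genes tested were. Without WT replicate 3 it was 2 of the 9, where 668 of the 9261 genes tested were called lower. A fit on the 6 cellulose libraries called 0 of the 9, where 345 of the 8824 genes tested were called lower. Without replicates 1 and 2 labelled Δ*Podot1* the log2 fold changes of the 9 lay between -4.56 and 0.66. In both replicates 1 and 3 labelled Δ*Podot1*, 6 of the 9 genes lay below all WT libraries, as did 23.2% of the genes listed in these libraries. *xyn10A* lay inside the WT range in both, which held for 0 of the 9 and for 11.5% of the genes listed. The remaining genes, *cel6A*, *cel5B* and *chi18A*, had 1 or both of these libraries outside the WT range but not both below it. This measure depends on the width of the range, which for *xyn10A* was 4.04-fold with WT replicate 3 at 285 FPKM. Both labelled libraries (145 and 218 FPKM) lay above WT replicates 1 and 2 (97.3 and 70.6 FPKM). The WT range was 2185 to 2406 FPKM for *cel6A* and 2348 to 9915 FPKM for *chi18A*.

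The ratio of *xyn10A* to each of these genes within a library does not depend on depth, and it was compared directly. On the log2 scale the mean ratio in the libraries labelled Δ*Podot1* exceeded that in WT for all 9 genes, by 0.87 for *cel5B* up to 4.63 for *amy15A*, with a median of 1.78. For *amy15A* the mean log2 ratio was -2.17 in the libraries labelled Δ*Podot1* and -6.79 in WT, and for *amy13A* it was 0.35 in the labelled Δ*Podot1* libraries and -3.29 in WT. For 4 genes (*amy15A*, *amy13A*, *cel61A* and *cel7B*) the ratios of the 3 labelled Δ*Podot1* libraries did not overlap those of WT. Over all 9146 genes with a value in each cellulose library, 0.361% showed such a higher ratio without overlap. In replicate 2 *xyn10A* was at 4.11 FPKM, against at least 70.6 FPKM in WT. Only genes themselves far below WT in that library could pass, so this share is not a background for genes that rise in cellulose. None of the 9 ratios passed after adjustment over the 9 genes (two-sided exact permutation test, smallest adjusted p = 0.225, where 3 against 3 cannot go below 0.1 unadjusted). Without replicate 2 the differences were 0.48 to 5.43, and again 4 ratios did not overlap. In replicate 3 alone the ratio exceeded the WT mean by 0.13 for *cel6A* up to 5.35 for *amy15A* and lay above all WT libraries for 6 of the 9 genes, a comparison of 1 library with no test. The 9 ratios share the *xyn10A* values and are not independent.

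**Figure D4:**
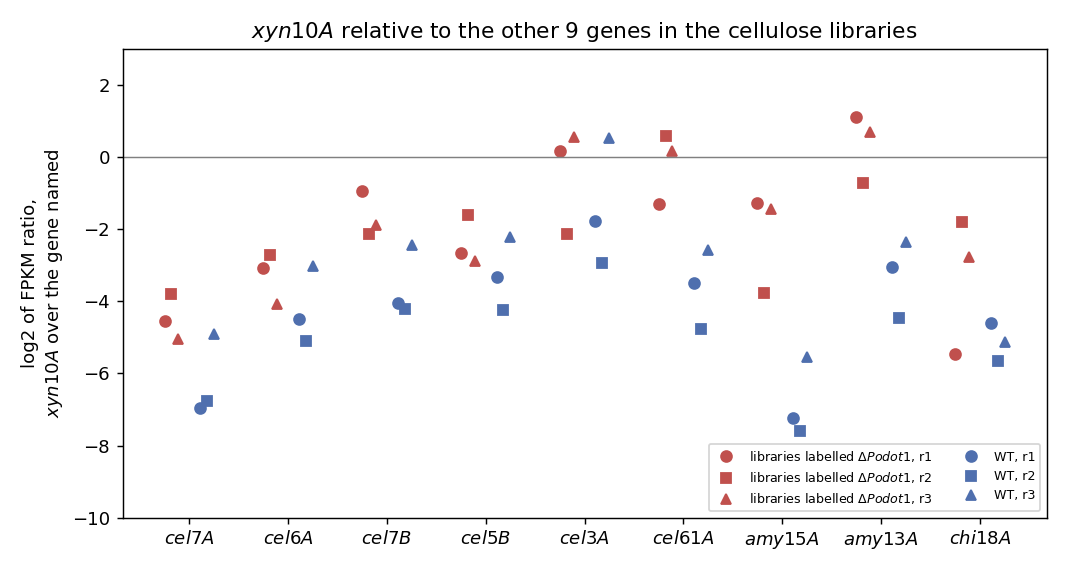
Log2 of the FPKM ratio of *xyn10A* to each of the other 9 secreted glycoside hydrolase genes in the libraries labelled Δ*Podot1* (red) and WT (blue) in cellulose, with 1 point per replicate. The 2 colours do not overlap for *amy15A*, *amy13A*, *cel61A* and *cel7B*, and a value of 0 means equal FPKM.

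In glucose, where the gene is low, the mean *xyn10A* level was 1.65 ± 0.59 FPKM in Δ*Podot1*, against 0.81 ± 0.62 FPKM in WT (SD, n = 3 each). The log2 fold change fitted was 0.91 (standard error 1.20, 95% interval -1.71 to 3.54, adjusted p = 0.692, edgeR), where 4.83% of the genes tested were called higher and 4.01% lower. With 49 counts in Δ*Podot1* and 23 in WT, the ratio at equal depth was 2.02 (counting interval 1.21 to 3.47). That interval leaves out the spread between replicates, and the libraries overlapped, since WT replicate 3 (1.42 FPKM) was above Δ*Podot1* replicates 2 and 3 (two-sided exact permutation test, p = 0.3). A strain difference in glucose was not detected beyond the spread between replicates.

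Whether the response to the medium differed between the strains was tested as an interaction. For *xyn10A* the log2 difference between the responses in Δ*Podot1* and WT was -1.24 (standard error 1.53, 95% interval -4.58 to 2.10, adjusted p = 0.671, edgeR), where 1.68% of the genes tested were called in either direction. Without replicate 2 labelled Δ*Podot1* in cellulose it was -0.67, without replicates 1 and 2 it was -0.38, and over the alternatives it lay between -2.48 and -0.38 with no call. Among the other 9 genes *amy15A* was called (-4.94, adjusted p = 0.0479, edgeR) and 8 were not. The call of *amy15A* was lost in 10 of 23 alternative fits: with the replicate block, and without replicate 1 labelled Δ*Podot1* in cellulose, any one Δ*Podot1* glucose library, any one WT cellulose library or WT glucose replicate 2 or 3. Without replicate 2 labelled Δ*Podot1* in cellulose 4 of the 9 were called, where 741 of the 9136 genes tested were. Without replicates 1 and 2 the log2 differences of the 9 lay between -4.08 and 0.43.

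The study annotates 5 further genes of xylan breakdown. Its tables hold them because they differed between the strains, so they are not independent evidence of a direction in the strain comparisons. PDE_04478, an endo-1,4-β-xylanase and so of the same activity as Xyn10A, was at 301, 1.31 and 38.1 FPKM in replicates 1, 2 and 3 labelled Δ*Podot1* in cellulose, against 12.6, 22.8 and 23.9 FPKM in WT in cellulose. It shared with *xyn10A* the low value in replicate 2, but its 2 high libraries lay above WT. Its change was not called between the strains (log2 fold change 2.47, adjusted p = 0.113, edgeR), and between the media it was called in Δ*Podot1* (4.81) and missed the threshold in WT (3.28, adjusted p = 0.0592, edgeR).

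The side-chain enzymes did not follow *xyn10A* as a group. The acetylxylan esterase gene PDE_09278 was higher in cellulose in Δ*Podot1* (log2 fold change 2.67, edgeR) and in WT (5.95), and it was downregulated in the cellulose libraries labelled Δ*Podot1* (-2.56). The α-L-arabinofuranosidase gene PDE_07897 rose in cellulose in Δ*Podot1* (3.10), was not called in WT (-0.41), and in cellulose was above WT in the libraries labelled Δ*Podot1* (2.71). PDE_07080, of the same activity, was higher in Δ*Podot1* than in WT in glucose (4.64) and in cellulose (3.06), and PDE_06067, again an α-L-arabinofuranosidase, fell in cellulose in WT (-1.99). Of the 5 genes, 3 were called higher and 0 lower in cellulose in Δ*Podot1* (median 2.67), where 13.4% and 3.96% of all genes tested were. In WT 1 was called higher and 1 lower (median -0.22), where 19.2% and 15.9% of all genes tested were. Between the strains 2 were called higher and 1 lower in cellulose, where 14.3% and 10.8% of all genes tested were. In glucose it was 1 higher and 0 lower, where 4.83% and 4.01% were. Without replicate 2 labelled Δ*Podot1* in cellulose, 3 of the 5 were called higher and 1 lower between the strains in cellulose, where 1273 and 1104 of the 9136 genes tested were. PDE_04478 was then called (3.04), and PDE_07080, at 62.3 FPKM in replicate 2 and 11.2 and 6.74 FPKM in replicates 1 and 3, kept its call at 1.57. PDE_04478 was then also called higher in cellulose in WT (3.27), and PDE_07080 lower in cellulose in Δ*Podot1* (-3.29). Without replicates 1 and 2, the log2 fold changes between the strains in cellulose were 3.37 for PDE_07897, -1.89 for PDE_09278 and 0.94 for PDE_04478. They were 1.19 for PDE_07080 and -0.23 for PDE_06067. That fit leaves 1 library in the group, so only effect sizes are given.

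Genes were also ordered by how closely their pattern followed that of *xyn10A*, by the root mean square difference between centred log2(FPKM + 1) values over the 12 libraries, among 9273 genes averaging at least 1 FPKM. The closest 5 were PDE_00579, PDE_10005, PDE_06023, PDE_03152 and PDE_03927, with differences of 0.50 to 0.55. The closest, PDE_00579, was at 955, 25.1 and 1443 FPKM in the cellulose libraries labelled Δ*Podot1* and at 1030, 1010 and 1109 FPKM in WT in cellulose, against 14.3 to 16.6 FPKM in Δ*Podot1* and 12.8 to 17.1 FPKM in WT in glucose. PDE_03927 was at 78.6, 2.09 and 137 FPKM in the cellulose libraries labelled Δ*Podot1* and at 76.6, 111 and 249 FPKM in WT in cellulose. Both were low in replicate 2. The list depended on the measure: with a pseudocount of 10, 1 of the 5 stayed among the closest 5, without replicate 2 labelled Δ*Podot1* in cellulose 2 did, and without replicates 1 and 2 it was 1. Of the secreted glycoside hydrolase genes, *cel6A* (rank 33, difference 0.78), *cel5B* (rank 36, 0.80) and *cel7B* (rank 50, 0.85) were the nearest, and *amy15A* (rank 491, 1.85) was the farthest.

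The genes with the nearest locus tag numbers did not show the same pattern, and their position in the genome was not analysed here. PDE_08092, PDE_08093 and PDE_08095 were not called between the media in either strain, with log2 fold changes of -0.58 to 0.95 in Δ*Podot1* and -0.27 to 0.15 in WT. PDE_08096 rose in cellulose in Δ*Podot1* (log2 fold change 1.60, adjusted p = 0.0373, edgeR) and in WT (3.73, adjusted p = 0.00043, edgeR), at levels of 2.95 to 5.84 FPKM in the cellulose libraries labelled Δ*Podot1* and 17.9 to 36.4 FPKM in WT in cellulose. In contrast to *xyn10A*, PDE_08096 was downregulated in the cellulose libraries labelled Δ*Podot1* (-2.75, adjusted p = 0.00330, edgeR), as was PDE_08095 (-1.13), while PDE_08092 was upregulated (1.02). Of all genes tested 10.8% were called lower and 14.3% higher there. Without replicate 2, 3 of the 4 were called lower and 1 higher in this comparison, where 1104 and 1273 of the 9136 genes tested were. In that fit PDE_08092 was called between the media in Δ*Podot1* (1.23), and the medium call of PDE_08096 in Δ*Podot1* was lost (adjusted p = 0.0540, edgeR). Without replicates 1 and 2, PDE_08096 alone of the 4 was called between the strains in cellulose (-3.15, adjusted p = 0.00853, edgeR), and the medium comparison in Δ*Podot1* called neither PDE_08092 (adjusted p = 0.0925, edgeR) nor PDE_08096 (adjusted p = 0.167, edgeR).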

How the data were processed

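RNA-seq values of 12 mycelial libraries of *P. oxalicum* (WT and Δ*Podot1*, glucose and cellulose medium, 3 biological replicates each) were analysed, grouped by the sample labels. The tables the authors deposited give each gene an estimated count (unnormalized) and an FPKM value normalized for gene length and mapped reads. The paper names BGISEQ-500 sequencing, HISAT and Bowtie2, whereas the labels describe an NlaIII tag protocol and a preculture of 24 h, which differs from the paper. Versions, the genome build and the counting program: not given in the sources used here. A gene without a row in a library was set to 0. Reads of near-identical xylanase genes may have been split by the estimation, and strand was not stated. Of the listed estimated counts 0.713% were not whole (tolerance 0.001), and all *xyn10A* counts were whole.

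Estimated counts were rounded and fitted with edgeR 4.0.16 under R 4.3.3 (filterByExpr, TMM scaling, glmQLFit and glmQLFTest), with a mean per group over all 12 libraries, and p-values were adjusted over the 9088 genes tested. The study's methods name thresholds on a fold change and a divergence probability, and edgeR was used here because the tables hold estimated counts of replicated groups. Standard errors were taken as |log2 fold change| over the root of the F statistic, and are rough at low counts. Exact permutation tests and intervals used SciPy 1.17.1. The alternatives tried were DESeq2 1.42.0, limma 3.58.1 (log2(FPKM + 1), log2(FPKM + 0.1), log2(FPKM + 10) and log2(TPM + 1)), other filters (none, or a mean of at least 10 FPKM) and scalings, the groups compared alone, a replicate block, a ratio of group means, no fold threshold, and leaving out libraries. Leaving out both libraries that go against their label was added after seeing the data for the ratios, the ranks, the pattern likeness and the gene lists. Folds in limma are on the log2(value + pseudocount) scale and understate changes of low genes. The fits were tested on simulated data.

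*xyn10A* and the gene lists were chosen with earlier results of these data known. The named genes were *Podot1*, the study's other 9 secreted glycoside hydrolase genes, its 5 annotated xylan genes, the 5 genes of most similar pattern and the 2 locus tags on each side. The annotation used here belongs to another strain with other locus tags, so sequences and positions were not analysed here.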

Additional observations from a re-analysis of the deposited data

How the results depend on the processing

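The higher *xyn10A* level in cellulose was called in WT under all 25 tested alternatives (adjusted p 1.13e-11 to 0.0120), with log2 fold changes of 3.66 to 8.13, and of 6.51 to 8.13 with 1 library left out. In Δ*Podot1* the log2 fold change lay between 2.77 and 6.94, and between 5.33 and 6.66 with 1 library left out. The threshold was missed in a fit on the groups compared only (6.11, standard error 1.38, adjusted p = 0.0644, edgeR). The same setting in WT had a standard error of 0.79. The strain difference in cellulose lay between -1.09 and 0.48 with 1 library left out. It reversed without the library labelled Δ*Podot1* replicate 2 (0.25), without WT replicate 3 (0.48) and without replicates 1 and 2 labelled Δ*Podot1* together (0.53). Without replicate 2 the difference in mean FPKM was 30.5, against -28.6 over all libraries. The strain difference in glucose (0.11 to 1.72) and the interaction (-2.48 to -0.38) were not called under any alternative.

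With the replicate block, the log2 fold changes of *xyn10A* were 5.35 for the medium in Δ*Podot1*, 7.50 for the medium in WT, -0.84 for the strain in cellulose, 1.32 for the strain in glucose and -2.16 for the interaction, with no call changed. The block gave 1263, 3064, 1880, 619 and 79 called genes in the same order, against 1575, 3192, 2290, 803 and 153 without it. Deviations of libraries with the same number correlated between -0.138 and 0.166, so a pairing by number was not seen. In the cellulose libraries labelled Δ*Podot1*, where replicate 2 stood apart, a pairing could have been hidden, so the check does not exclude it. Over all alternatives the number of genes called was 163 to 3184 for the medium in Δ*Podot1*, 2076 to 3764 for the medium in WT, 537 to 2746 for the strain in cellulose, 283 to 1582 for the strain in glucose and 20 to 830 for the interaction. Scaling by library size only moved the median log2 fold change of all genes in the medium comparisons to 0.24 in Δ*Podot1* and 0.21 in WT, against 0.07 and 0.05 with TMM. The 23 counts of *xyn10A* over the WT glucose libraries limit the precision of its fold changes there. Among the other xylan genes and the locus-tag neighbours, the medium call in Δ*Podot1* was lost for PDE_04478 in 10 of 24 alternative fits, for PDE_09278 in 9 and for PDE_07897 in 3 of 24, and for PDE_08096 in 12 of 23. The strain call in cellulose was lost for PDE_08092 in 16, for PDE_08095 and PDE_07897 in 6 each, for PDE_07080 in 4 and for PDE_09278 in 1 of 24.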
